A study of Mus musculus with 12 samples.

Results

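The Nr4a orphan nuclear receptors are 3 mouse genes, Nr4a1 (Nur77) on chromosome 15, Nr4a2 (Nurr1) on chromosome 2 and Nr4a3 (Nor1) on chromosome 4. They were read from all probe sets whose only gene symbol in the array annotation is one of the 3 genes, which gave 10 of the 45037 probe sets that are not controls. Nr4a1 had 1 probe set, Nr4a2 had 6 and Nr4a3 had 3. The values are linear signal intensities that the authors scaled per array, measured on 12 Affymetrix arrays of CD8 T cells enriched from spleens of male mice, with 3 biological replicates in each of 4 groups. KO T6 cells carried Cd4-Cre/Scapfl/fl and had been activated for 6 h with plate-bound antibody to CD3 and soluble antibody to CD28. KO T0 cells had the same genotype and were quiescent. WT T6 cells carried Cd4-Cre/Scap+/+ and had been activated for 6 h, and WT T0 cells of that genotype were quiescent. All 4 groups therefore carried the Cre transgene, whose Cd4 promoter is active in thymocytes before CD4 and CD8 cells part, so deletion is not limited to CD8 cells. Scap encodes the protein that escorts sterol-sensing SREBP transcription factors out of the endoplasmic reticulum.

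NR4A proteins are transcription factors of the nuclear receptor superfamily that work without a known hormone ligand, because bulky side chains fill the pocket where other receptors bind one. Their activity is therefore set largely by how much of each protein a cell makes. They bind an extended receptor element as monomers and a paired element as dimers, and NR4A1 and NR4A2, but not NR4A3, pair with the retinoid X receptors. In T cells the 3 genes are switched on quickly when the antigen receptor is engaged, Nr4a1 serves as a reporter of receptor signal strength, and the family is known for roles in the death of self-reactive thymocytes, in regulatory T cells and in the restraint of chronically stimulated CD8 T cells.

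The sequence before the transcript start that RefSeq's promoter table uses holds, in all 3 genes, a cAMP response element core, the letters TGACG, which CREB-family factors bind. The 250 bases before each annotated transcript start are shown because the 3 genes moved together on activation and because this core is repeated in each. They were taken from RefSeq on GRCm38.p6 and run 5′ to 3′ on the gene's strand, at chr15:101266596-101266845 (plus strand), chr2:57124004-57124253 (minus strand) and chr4:48045055-48045304 (plus strand). Capitals mark TGACG or its reverse complement CGTCA.
Nr4a1: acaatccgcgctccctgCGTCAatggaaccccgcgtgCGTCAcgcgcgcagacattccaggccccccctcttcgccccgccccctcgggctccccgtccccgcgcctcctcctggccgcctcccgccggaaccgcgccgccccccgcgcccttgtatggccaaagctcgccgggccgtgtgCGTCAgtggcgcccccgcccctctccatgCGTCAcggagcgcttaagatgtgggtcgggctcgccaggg
Nr4a2: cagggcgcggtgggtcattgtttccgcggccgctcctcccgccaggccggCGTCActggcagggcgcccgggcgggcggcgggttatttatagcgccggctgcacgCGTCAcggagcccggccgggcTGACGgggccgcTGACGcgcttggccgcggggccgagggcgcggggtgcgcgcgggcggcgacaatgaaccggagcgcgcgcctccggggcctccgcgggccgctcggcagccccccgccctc
Nr4a3: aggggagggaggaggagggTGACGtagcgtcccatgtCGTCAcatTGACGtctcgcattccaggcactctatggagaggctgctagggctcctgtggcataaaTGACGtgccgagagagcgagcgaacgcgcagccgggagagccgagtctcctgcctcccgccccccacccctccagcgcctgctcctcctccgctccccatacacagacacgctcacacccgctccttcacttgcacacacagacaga

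Each window held 4 matches to the core on either strand. Of 32851 promoter windows of this length in the same table, 17.8% held at least 1 match and 0.137%, or 45 windows, held at least 4. The core was shown because it repeats in these windows, so these shares are a description and not a test. They were taken over all windows, whatever their G or C content. The first base of a match lay at -233, -213, -69 and -40 from the transcript start of Nr4a1. The matches of Nr4a2 lay at -200, -144, -123 and -111. Those of Nr4a3 lay at -231, -213, -205 and -147. Other annotated starts exist: the gene record of Nr4a3 begins inside its window, so that all its matches but the one at -231 lie within the annotated gene, and the gene record of Nr4a1 begins before its window. The full palindrome TGACGTCA, which contains the core, was in none of the 3 windows and in 1.55% of all windows. The NFAT core GGAAA was found once, in the window of Nr4a2 at -230 as its reverse complement, and in 55.6% of all windows. The AP-1 element TGANTCA and the NR4A monomer element AAAGGTCA were not in the 3 windows, and were in 6.75% and 1.34% of all windows. The windows of Nr4a1, Nr4a2 and Nr4a3 were 74.4%, 80.0% and 63.6% G or C. These matches describe the letters only, and no binding was measured.

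Expression was analysed as log2(signal + 16) over 13156 genes, each read from its probe set with the highest mean. The Scap probe set, which need not lie in the deleted part of the gene, had a log2 difference of -0.47 ± 0.14 between KO and WT at T6 (SE, limma, adjusted p = 0.273), and at T0 the difference was -0.25 ± 0.14 (adjusted p = 0.593). Its signal was 2117 to 2227 on KO T6 arrays and 2987 to 3079 on WT T6 arrays, which did not overlap, and 1805 to 2459 on KO T0 arrays and 2074 to 2937 on WT T0 arrays, which did. The defining CD8 genes were present, since Cd8a gave 5693 to 12914 and Cd8b1 9184 to 23988 over the 12 arrays. Cd4 was above percentile 40 of its array on 0 of 12. The other 4 CD4 T cell markers on the array, Zbtb7b, Foxp3, Cd40lg and Ctla4, passed the filter on low values. The summed signal of the 5 CD4 T cell markers was 852 to 2400 over the 12 arrays. B cell, myeloid and erythroid markers averaged higher in KO, but nearly all without passing the test. Only the myeloid marker Tyrobp passed, at T6 (1.68, limma adjusted p = 0.0483), where 0.0988% of all tested genes were called. Of the 4 tested NK cell markers 2 had a positive KO minus WT difference at T6 and 1 at T0. At T6 all 13 tested B cell markers and all 13 tested myeloid markers had a positive KO minus WT difference, with medians of 1.32 and 0.88, and at T0 the same numbers were positive, with medians of 0.71 and 0.52. The summed B cell signal was 15247 to 25392 on KO T6 arrays, 25010 to 43021 on KO T0 arrays, 4806 to 11826 on WT T6 arrays and 14134 to 26182 on WT T0 arrays. The summed myeloid signal was 3082 to 6829 on KO T6 arrays, 21781 to 30942 on KO T0 arrays, 1221 to 2893 on WT T6 arrays and 15643 to 20523 on WT T0 arrays. On activation 9 of the 13 myeloid markers fell in both genotypes. Over all tested genes 20.9% were called on activation in KO and 25.1% in WT, in either direction. All 10 tested T cell identity genes had a negative KO minus WT difference at both times, and none passed. KO T6 replicate 2 and KO T0 replicate 2 had the highest erythroid marker levels, at a mean log2 of 12.84 and 12.61. The other KO arrays had 9.05 to 11.69 and the WT arrays 8.30 to 9.21. These means are over the 3 tested erythroid markers, Alas2, Slc4a1 and Klf1. Hba-a1, an erythroid marker also on the array, was above percentile 40 on 0 of 12 arrays. The part of these cell mixtures in the Nr4a results was not tested. The covariate fit named below cannot separate it from genotype or activation, since the markers used also differed in level between the groups. In such bulk samples fewer cells of a type and less RNA per cell cannot be told apart.

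The first comparison was the response to activation. All 3 Nr4a genes rose in both genotypes, by between 6.66-fold and 27.6-fold, and Nr4a3 had the largest change when each gene was read from its brightest probe set. With all probe sets of a gene averaged, including dim ones and 1 of Nr4a3 that failed the filter on low values, Nr4a3 had the smallest. Activation moved many genes: 20.9% of all tested genes passed in KO (10.4% as rises) and 25.1% in WT (11.3% as rises), and T6 arrays lay wholly above T0 arrays for 18.9% of genes in KO and 19.2% in WT. Nr4a1 had signals of 17041, 10179 and 14341 on the KO T6 arrays, against 2476, 1647 and 2019 on the KO T0 arrays. In WT its signals were 15776, 11297 and 12968 at T6, against 2453, 1210 and 1304 at T0. Every T6 array of Nr4a1 lay above every T0 array, also when the genotypes were crossed. The log2 change was 2.74 ± 0.29 in KO (SE, 95% interval 2.09 to 3.38, 6.66-fold, adjusted p = 0.00016) and 3.06 ± 0.29 in WT (2.42 to 3.70, 8.34-fold, adjusted p = 6.28e-05), both from limma with Benjamini-Hochberg adjustment over all tested genes.

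**Figure D1:**
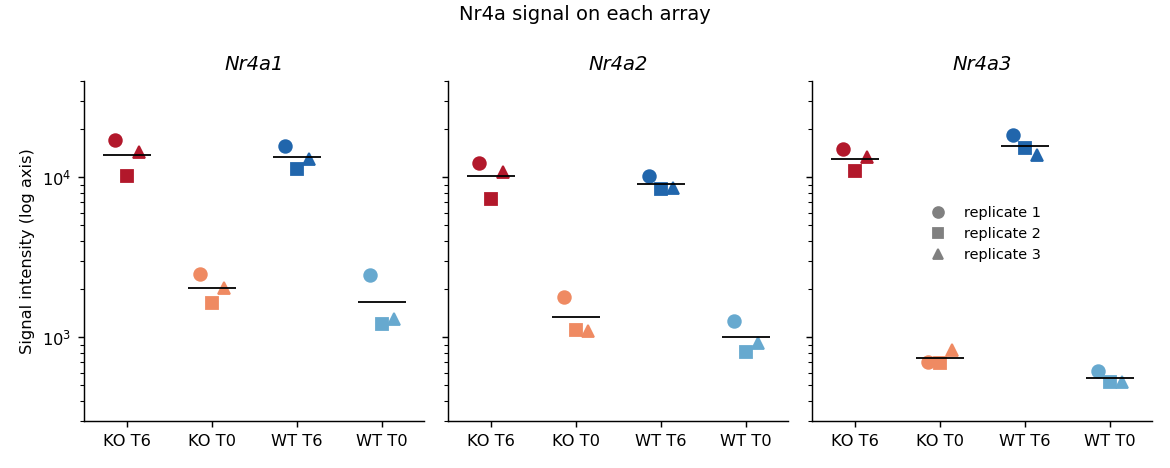
Signal intensity (log axis) of the probe set that represents each Nr4a gene, on each of the 3 arrays of the KO T6, KO T0, WT T6 and WT T0 groups. Symbols mark replicate numbers and bars the mean of 3 arrays; in each panel the T6 arrays of both genotypes lie above all T0 arrays.

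Nr4a2, which mice need to form midbrain dopamine neurons and which in T cells overlaps in function with its relatives, changed by a similar amount. Its signals were 12282, 7288 and 10799 on the KO T6 arrays, against 1782, 1111 and 1096 on the KO T0 arrays. In WT they were 10265, 8482 and 8628 at T6, against 1266, 814 and 915 at T0. The T6 and T0 arrays were again fully separated in both genotypes. The log2 change was 2.92 ± 0.25 in KO (95% interval 2.36 to 3.47, 7.55-fold, limma adjusted p = 4.56e-05) and 3.19 ± 0.25 in WT (2.63 to 3.75, 9.13-fold, adjusted p = 2.02e-05).

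The brightest Nr4a3 probe set showed the widest step of the 3 read in this way. It gave signals of 14930, 10934 and 13356 on the KO T6 arrays, against 698, 688 and 828 on the KO T0 arrays. In WT its signals were 18291, 15271 and 13706 at T6, against 613, 523 and 525 at T0. Here too no T6 array came near a T0 array. The log2 change was 4.11 ± 0.15 in KO (95% interval 3.78 to 4.44, 17.3-fold, limma adjusted p = 2.44e-07) and 4.79 ± 0.15 in WT (4.45 to 5.12, 27.6-fold, adjusted p = 8.17e-08).

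Without KO T6 replicate 2, the lowest KO T6 array for all 3 genes, the changes in KO were 2.94 for Nr4a1, 3.14 for Nr4a2 and 4.23 for Nr4a3, all still called. By size of the log2 change, Nr4a3 ranked 14th of 13156 genes in KO and 5th in WT, Nr4a2 ranked 42nd and 31st, and Nr4a1 ranked 46th and 39th. Within each gene the order of group means was the same for Nr4a1 and Nr4a2. Nr4a1 averaged 13.73 ± 0.38 in KO T6, 13.69 ± 0.24 in WT T6, 10.99 ± 0.29 in KO T0 and 10.63 ± 0.56 in WT T0 (log2 scale, SD, n = 3 each). Nr4a2 averaged 13.27 ± 0.39 in KO T6, 13.15 ± 0.15 in WT T6, 10.36 ± 0.40 in KO T0 and 9.96 ± 0.32 in WT T0. For Nr4a3 the activated groups stood the other way round, at 13.66 ± 0.23 in KO T6 and 13.93 ± 0.21 in WT T6, with 9.55 ± 0.15 in KO T0 and 9.15 ± 0.13 in WT T0. For all 3 genes the T6 and T0 levels were apart by far more than these spreads, and neighbours of the same time did not pass the test between genotypes.

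The other Nr4a probe sets did not all move alike. In the fit over 30078 probe sets, 9 of the 10 passed the filter on low values. Of these, 8 were called higher at T6 in KO, against a background of 8.33% of probe sets called higher, and 7 in WT, against 9.24%. Both counts include Nr4a3 probe set 1421079_at, which exceeded the filter level on its 6 T6 arrays only. It was thus tested only because it was high at T6, and its calls lend no support. Probe sets of the same gene are also not independent of each other. For Nr4a2, 1447863_s_at rose by 2.97 in KO and 3.33 in WT on the log2 scale. The probe sets 1450750_a_at (2.91 in KO and 2.79 in WT) and 1450749_a_at (3.39 in KO and 3.54 in WT) rose to a similar extent. The 4 brighter probe sets of Nr4a2 thus gave changes between 2.79 and 3.54.

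The dimmer probe sets moved less. Nr4a2 probe set 1433423_at had signals of 222, 107 and 143 on the KO T6 arrays, against 66.0, 60.9 and 30.8 on the KO T0 arrays, a log2 change of 1.33 (adjusted p = 0.00717). In WT it had 119, 80.0 and 106 at T6, against 74.3, 59.6 and 67.4 at T0, a change of 0.49 that did not pass (adjusted p = 0.235). The difference between these changes was 0.83 and did not pass (adjusted p = 0.942), where 0.00332% of probe sets, or 1, did. Nr4a2 probe set 1433422_at was near percentile 40 of the arrays, which lay between 34.0 and 42.7, and its changes of 0.71 in KO and 0.05 in WT did not pass (adjusted p = 0.163 and 0.937). Nr4a3 probe set 1421079_at was also close to that level, at 54.3 to 69.7 on KO T6 arrays and 6.39 to 26.3 on KO T0 arrays, and at 48.9 to 69.5 on WT T6 arrays and 4.63 to 24.0 on WT T0 arrays. It rose by 1.35 in both genotypes, a value that the added 16 compresses. Nr4a3 probe set 1421080_at was above percentile 40 on 1 of 12 arrays and was not tested. When all probe sets of a gene were averaged, 1421080_at and 1421079_at among them, Nr4a3 changed by 1.76 in KO and 2.09 in WT. This was still called but the smallest change of the 3 genes.

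**Figure D2:**
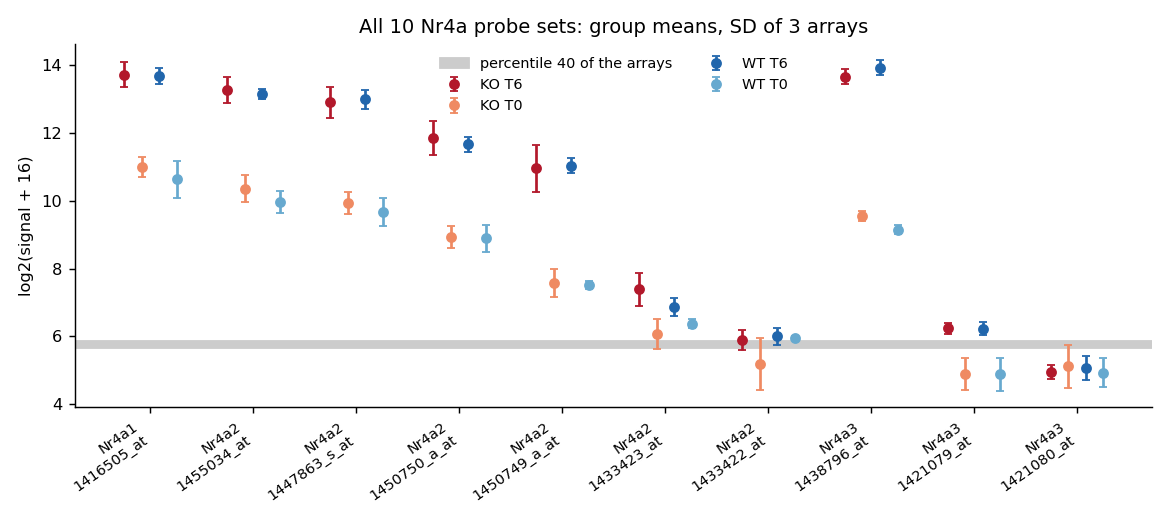
Group means of log2(signal + 16) with SD over 3 arrays for all 10 Nr4a probe sets, in KO T6, KO T0, WT T6 and WT T0 cells; the grey band marks percentile 40 of the 12 arrays. The bright probe sets separate T6 and T0 in both genotypes, while 1433422_at and 1421080_at lie close to the band or below it in every group.

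Read from these 3 brightest probe sets, the genes did not change by equal amounts. Expressed as a log2 ratio within each array, Nr4a3 over Nr4a1 shifted by 1.37 in KO and 1.72 in WT on activation, and Nr4a3 over Nr4a2 by 1.19 and 1.59. The ratio of Nr4a2 over Nr4a1 shifted by 0.18 in KO and 0.13 in WT. The T6 arrays of the Nr4a3 over Nr4a1 ratio ran between -0.19 and 0.10 in KO, against -1.80 to -1.24 for KO T0. In WT they ran between 0.08 and 0.43, against -1.97 to -1.19 for WT T0. With all probe sets of a gene averaged the order turns round, since Nr4a3 then changed by 1.76 in KO and 2.09 in WT, Nr4a2 by 2.37 and 2.23, and Nr4a1 by 2.74 and 3.06. With the mean restricted to probe sets above percentile 40 on all arrays, a choice made after the values were seen, Nr4a3 changed by 4.11 and 4.79 and Nr4a2 by 3.05 and 3.21. Only the shift of such a ratio can be read, since levels of different probe sets are not comparable.

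Nr4a1 and Nr4a2 were each other's nearest gene in pattern among the 13155 other tested genes, at a root mean square difference of 0.163 log2 units over the 12 arrays after each gene was centred on its own mean. The next genes for Nr4a1 were Pdcd1lg2 (0.210), which encodes the PD-1 ligand PD-L2, Slamf1 (0.321), Fosl2 (0.328) and 1110032F04Rik (0.345). For Nr4a2 they were Pdcd1lg2 (0.273), Pdcd1 (0.303), Slamf1 (0.312) and Cd274 (0.357), the last encoding the PD-1 ligand PD-L1. Nr4a3 was 133rd in the order around Nr4a1 and 94th in that around Nr4a2. Its own nearest genes were Rgs16 (0.218), a brake on G protein signalling, Il2ra (0.239), the high-affinity chain of the interleukin-2 receptor, and the secreted factors Ccl1 (0.257), Xcl1 (0.258) and Tnf (0.263). All these distances are dominated by the step between T0 and T6 and describe likeness over these arrays only.

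The Nr4a genes were next set beside a list of 19 tested early response genes, most of which encode transcription factors and which are called immediate early genes here. T cells induce many such genes within minutes of stimulation, and many are shut off again within hours. In both genotypes the same 8 genes rose, the same 8 fell and 3 (Maff, Atf3 and Ier2) did not pass in either, whereas 20.9% of all tested genes were called in KO and 25.1% in WT. The median of the list was 0.54 in KO and 0.04 in WT, beside -0.00 and -0.06 over all tested genes. Among those that rose, Fosl1, an AP-1 subunit, changed by 4.94 in KO and 4.41 in WT. Of its T0 arrays only WT T0 replicate 1 exceeded the filter level. Fosl1 thus passed the filter through its T6 arrays, and its calls lend no support. Egr2, a zinc-finger factor that restrains T cell responses, changed by 3.25 in KO and 3.69 in WT, and its relative Egr3 by 2.64 and 2.77. Fosl2 changed by 3.08 and 2.60. Smaller rises were those of Ier3 (1.46 in KO and 1.57 in WT), Bhlhe40 (1.36 and 1.58), Myc (1.27 and 1.38) and Egr1 (0.95 and 1.43).

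The classical AP-1 subunits were lower at T6. The log2 change of Jun was -2.35 in KO and -2.25 in WT, that of Fos was -1.97 and -2.03, that of Fosb was -1.80 and -1.26, and that of Junb was -1.75 and -2.04. Fos was at 12.32 ± 0.13 in KO T6 and 14.28 ± 0.16 in KO T0, and at 12.21 ± 0.37 in WT T6 and 14.24 ± 0.15 in WT T0. Klf6 (-0.87 in both), Klf10 (-0.72 in KO and -0.50 in WT), Ier5 (-0.50 and -0.72) and Jund (-0.47 and -0.80) fell less. At the single 6 h time point the Nr4a genes thus stood with the Egr and Fosl genes, which were higher, and not with Fos, Jun and Junb.

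**Figure D3:**
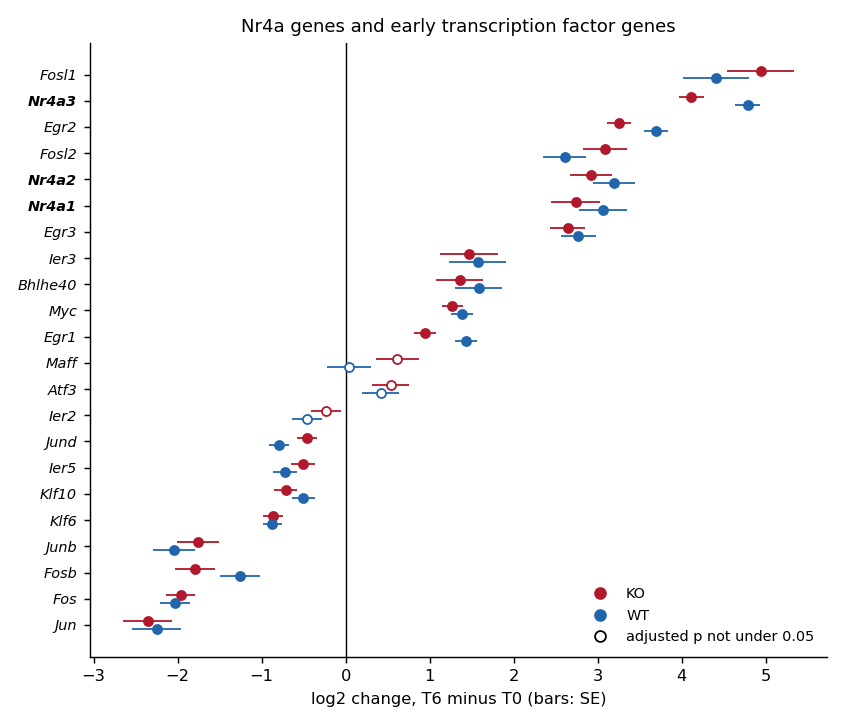
log2 change between T6 and T0 in KO (red) and WT (blue) for the 3 Nr4a genes (bold) and the 19 listed immediate early genes, with SE. Open symbols did not pass an adjusted p of 0.05. Nr4a3, at 4.11 in KO and 4.79 in WT, lies beside Fosl1, while Jun, Fos, Fosb and Junb lie below 0.

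Other members of the nuclear receptor superfamily were set beside the Nr4a genes. Of 45 listed receptor genes 41 were on the array and 25 were tested. In KO 5 rose and 3 fell, where 20.9% of all tested genes were called, and in WT 1 rose and 3 fell, where 25.1% were. Nr6a1, the germ cell nuclear factor, rose in both, by 1.71 in KO and 2.28 in WT. Pparg, a receptor for fatty acid derivatives, fell in both, with log2 changes of -1.78 in KO and -1.75 in WT. The median of the 25 was -0.07 in KO and -0.09 in WT, beside -0.00 and -0.06 over all tested genes.

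The other calls were made in 1 genotype each. In KO Nr0b2 (1.11), Rora (0.91), Hnf4a (0.62) and Pgr (0.59) rose, and Nr1h3, which encodes the oxysterol receptor LXR alpha (-1.05), and Rxra (-1.02) fell. In WT Rarg (-0.99) and Nr1d2 (-0.42) fell. Several of these signals were low: Pgr stood at 6.07 ± 0.09 in KO T6 and 5.48 ± 0.23 in KO T0, and Nr0b2 at 6.11 ± 0.39 and 4.99 ± 0.40. All T0 arrays of Nr0b2, at 4.61 to 5.45, lay below the filter level. Nr0b2 was thus tested only because it was high at T6, and its call, counted above among the rises in KO, lends no support. Pparg and Nr1h3 are also expressed by myeloid cells, whose markers fell on activation. Whether cell mixture had a part in the falls of these 2 genes was not tested. None of the 25 passed for the difference of the changes between genotypes, where 2 had an unadjusted p under 0.05. Pgr had the lower of these, at a difference of 1.0 ± 0.20 (limma adjusted p = 0.914).

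**Figure D4:**
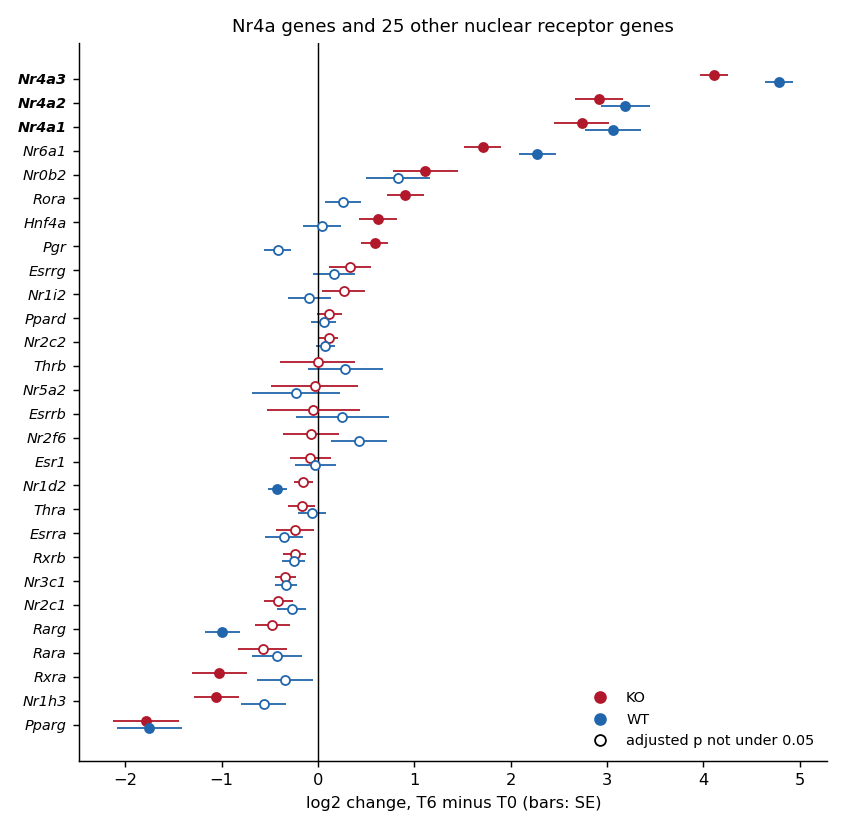
log2 change between T6 and T0 in KO (red) and WT (blue) for the 3 Nr4a genes (bold) and 25 other tested nuclear receptor genes, with SE; open symbols did not pass an adjusted p of 0.05. All 3 Nr4a genes exceed each of the other receptors, of which Nr6a1 comes nearest at 1.71 in KO and 2.28 in WT.

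Genes that act upstream of Nr4a transcription were examined next. In T cells calcium signals release MEF2 factors from class II histone deacetylases and bring NFAT to the nucleus. CREB-family factors can bind the TGACG core, but their binding at the matches shown above was not measured. Of 18 tested genes 1 rose and 3 fell in KO, and 2 rose and 5 fell in WT, beside 20.9% of all tested genes called in KO and 25.1% in WT. Crem, a CREB-family gene whose inducible products act as repressors, rose by 3.57 in KO and 3.50 in WT. Its log2 level was 11.49 ± 0.32 in KO T6 and 7.92 ± 0.37 in KO T0, and 11.23 ± 0.64 in WT T6 and 7.74 ± 0.31 in WT T0. Creb1 (-0.82 in KO and -0.65 in WT), Nfatc2 (-1.25 and -1.23) and Hdac7, which represses Nr4a1 in thymocytes (-1.08 and -1.03), fell in both. In WT Nfatc1 (0.38) also rose, and Crtc3 (-0.60) and Nfatc3 (-0.31, adjusted p = 0.0499) fell. No Mef2 gene passed in either genotype. The median of the list was -0.08 in KO and -0.21 in WT.

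Of 17 tested genes whose products bind or modify NR4A proteins, 1 rose and 2 fell in KO (Ncoa3 0.55, Rxra -1.02 and Prkdc -0.46), and none rose and 2 fell in WT (Ncoa1 -0.59 and Prkdc -0.55), beside 20.9% and 25.1% of all tested genes called in either direction. Rxra encodes a dimer partner of NR4A1 and NR4A2, Ncoa1 and Ncoa3 encode receptor coactivators, and Prkdc encodes the catalytic subunit of the DNA-dependent protein kinase. The median of the list was 0.02 in both genotypes.

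Of 19 tested genes that studies of T cells have reported as dependent on NR4A proteins, 6 rose and 3 fell in KO, and 6 rose and 7 fell in WT. Over all tested genes 20.9% were called in KO (10.4% as rises) and 25.1% in WT (11.3% as rises). The 6 rises and 3 of the falls were shared. The median of the list was 0.17 in KO and -0.03 in WT. Irf4, a factor whose level follows antigen receptor signal, rose by 4.21 in KO and 4.45 in WT. Pdcd1, which encodes the inhibitory receptor PD-1, rose by 3.00 and 3.36, and Socs1, a brake on cytokine signalling, by 2.25 and 2.33. Fasl (1.57 in KO and 1.50 in WT), Bach2 (1.17 and 1.09) and Tox2 (0.88 and 0.81) rose less. Izumo1r (-1.42 in KO and -1.32 in WT), Tnfsf10 (-0.75 and -0.80) and Runx3 (-0.73 and -0.50) fell in both. In WT Batf (-1.03), Tox (-0.69), Klf2 (-0.61) and Ccr7 (-0.49) also fell. Whether any of these changes needed an NR4A protein was not measured.

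The second comparison was KO against WT at each time. No Nr4a gene passed, against a background of 0.0988% of genes called at T6 and 0.0380% at T0 (13 and 5 genes). At T6 the log2 difference was 0.04 ± 0.29 for Nr4a1 (95% interval -0.61 to 0.68, limma adjusted p = 0.974), 0.12 ± 0.25 for Nr4a2 (-0.44 to 0.68, adjusted p = 0.876) and -0.27 ± 0.15 for Nr4a3 (-0.60 to 0.06, adjusted p = 0.509). The KO T6 and WT T6 signals given above overlapped for each gene, whereas 18.8% of tested genes had no overlap, and for Nr4a1 and Nr4a2 all WT T6 arrays lay within the range of the KO T6 arrays. Without KO T6 replicate 2 the T6 differences were 0.24, 0.34 and -0.15 for Nr4a1, Nr4a2 and Nr4a3, and none passed.

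At T0 all 3 genes, read from their brightest probe sets, averaged higher in KO, without passing the test. The difference was 0.36 ± 0.29 for Nr4a1 (95% interval -0.28 to 1.0, limma adjusted p = 0.696), 0.40 ± 0.25 for Nr4a2 (-0.16 to 0.95, adjusted p = 0.632) and 0.40 ± 0.15 for Nr4a3 (0.07 to 0.74, adjusted p = 0.456). The Nr4a3 arrays did not overlap, at 688 to 828 in KO T0 and 523 to 613 in WT T0, which held for 8.13% of all tested genes in this direction. With 1 array left out in turn the T0 differences ran between 0.17 (without WT T0 replicate 2) and 0.68 (without WT T0 replicate 1) for Nr4a1, and between 0.17 (without KO T0 replicate 1) and 0.58 (without WT T0 replicate 1) for Nr4a2. The unadjusted p of 0.022 for Nr4a3 was 1 of 1286 under 0.05 among the 13156 genes. With the mean level of B cell, myeloid and erythroid markers as a covariate the T6 differences became -0.57 for Nr4a1 and -0.47 for Nr4a2, and the T0 differences -0.12 and -0.071. That marker level itself followed genotype and time, so in these values cell mixture and genotype cannot be told apart. Of the other Nr4a2 probe sets, 1447863_s_at differed by 0.27 at T0, 1450750_a_at by 0.05 and 1450749_a_at by 0.06. The dim 1433423_at and 1433422_at differed by -0.32 and -0.76, and Nr4a3 probe set 1421079_at by 0.01. None of the 9 tested Nr4a probe sets passed at either time, against 0.469% of probe sets called at T6 and 0.0166% at T0.

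**Figure D5:**
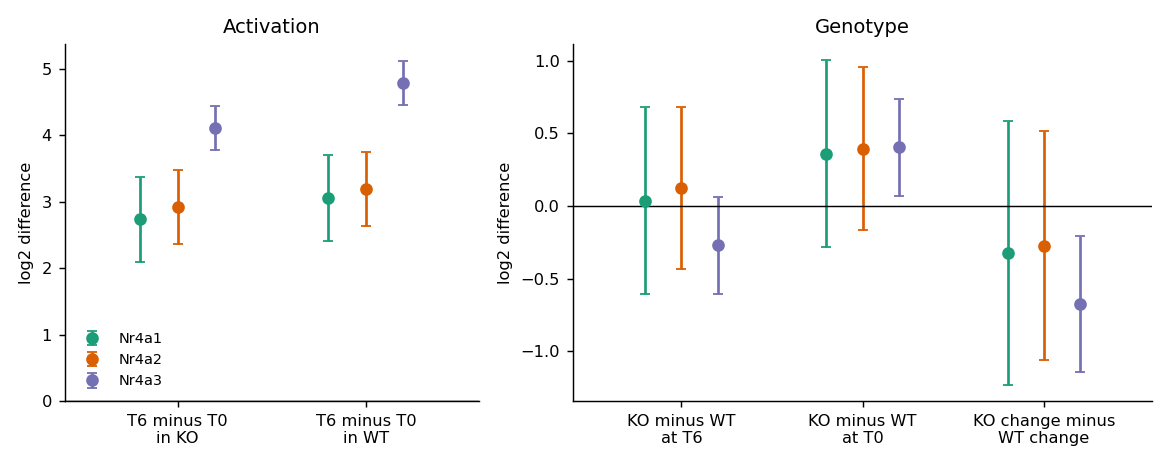
log2 differences with 95% intervals from the limma fit for Nr4a1, Nr4a2 and Nr4a3. The left panel shows T6 minus T0 in KO and in WT, all above 2, and the right panel KO minus WT at T6 and T0 and the change in KO minus the change in WT, which lie between -0.67 and 0.40.

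The third comparison asked whether the activation response differed with genotype. The change in KO minus the change in WT was -0.32 ± 0.41 for Nr4a1 (95% interval -1.23 to 0.59), -0.27 ± 0.35 for Nr4a2 (-1.06 to 0.51) and -0.67 ± 0.21 for Nr4a3 (-1.14 to -0.20). All 3 estimates, from the brightest probe sets, were negative, that is, a smaller rise in KO. With 1 array left out they ran between -0.64 (without WT T0 replicate 1) and -0.12 (without KO T6 replicate 2) for Nr4a1, and between -0.46 (without WT T0 replicate 1) and -0.046 (without KO T0 replicate 1) for Nr4a2. With all probe sets of Nr4a2 averaged its difference was 0.14. None passed (limma adjusted p = 0.9997 for each), and 0 of the 13156 genes did, with 604 at an unadjusted p under 0.05. The unadjusted p of Nr4a3 was 0.00954, the 113th lowest of all genes. Of the members of the 5 related lists none passed this test, and the immediate early gene with the lowest unadjusted p was Egr1, at -0.49 ± 0.19.

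In KO against WT no gene of the 5 lists passed at either time. An unadjusted p under 0.05 was reached at T6 and at T0 by 2 and 3 of 19 immediate early genes, 3 and 4 of 25 other receptors, 3 and 3 of 18 regulators, 0 and 1 of 17 partners, and 2 and 5 of 19 genes reported as NR4A-dependent. Over all tested genes 11.8% reached it at T6 and 9.78% at T0. Among the immediate early genes Klf6 had a difference of -0.48 ± 0.11 at T6 (limma adjusted p = 0.182) and -0.49 ± 0.11 at T0 (adjusted p = 0.262). At T0 Fosb stood at 0.75 ± 0.24 (adjusted p = 0.422) and Klf10 at 0.41 ± 0.14 (adjusted p = 0.426). Among the regulators Nfatc1 stood at -0.49 ± 0.11 at T6 (adjusted p = 0.150). Mef2c, which B cells and myeloid cells also express, stood at 1.06 ± 0.42 at T6 and 1.25 ± 0.42 at T0. Whether cell mixture had a part in the Mef2c difference was not tested. Among the genes reported as NR4A-dependent, the lowest p-values at T0 were those of Cblb (-0.55 ± 0.13, adjusted p = 0.268), Havcr2 (0.82 ± 0.21, adjusted p = 0.319) and Ccr7 (-0.48 ± 0.14, adjusted p = 0.401).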

How the data were processed

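Splenic CD8 T cells were profiled on 12 arrays, 1 per sample. Each deposited value is a linear probe set signal intensity made by the authors with GCOS, per the submitters' processing notes, whose version is not given in the sources used here. A trimmed mean of 500.003 on each array shows that arrays had been scaled. The number of arrays limits the precision. Arrays correlated at 0.949 to 0.978 over all probe sets, and 0 pairs were identical.

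Of 45101 probe sets 64 were controls. Among the rest 34945 had 1 symbol (18193 genes), 932 had several and 9160 had none. Signals were used as log2(signal + 16), which understates changes of weak signals. The brightest probe set on average stood for its gene, and was kept if it exceeded percentile 40 on 3 or more of the 12 arrays. limma 3.58.1 in R 4.3.3 (lmFit, eBayes, two-sided) was fitted to all 12 arrays with 1 coefficient per group. Benjamini-Hochberg adjustment ran over 13156 genes, or over 30078 probe sets, and a feature was called at an adjusted p under 0.05. The fit was tested on simulated data with 50 genes changed at each size. For the difference of changes, 44% of those changed by a log2 of 1 and 4% of those changed by 0.5 were recovered. For KO against WT at T6 the shares were 60% and 12%. Differences of such sizes can thus be missed. Groups are biological replicates per the labels, which do not say which arrays share a mouse. The members and gene lists were chosen with earlier results of these data known. Named list genes are up to 6 called genes per comparison by size, or the 3 with the smallest p where fewer than 3 passed. For the immediate early list all members may be named. Promoter windows, gene names and chromosomes came from RefSeq tables on GRCm38.p6. The deposited table states no build. Alternatives covered the added constant, filter, scaling, probe set rule, a marker covariate, replicate block, variance model and each array left out.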

Additional observations from a re-analysis of the deposited data

How the results depend on the processing

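The rises of Nr4a1, Nr4a2 and Nr4a3 on activation passed in both genotypes under all 24 alternatives run. Their log2 changes ran between 2.57 and 3.41 in KO and 2.87 and 3.86 in WT for Nr4a1, 2.37 and 3.57 in KO and 2.23 and 3.97 in WT for Nr4a2, and 1.76 and 4.28 in KO and 2.09 and 4.99 in WT for Nr4a3, which changed most of the 3 except with all probe sets averaged, where it changed least. No alternative called an Nr4a gene for genotype or for the difference of the changes. Small genotype differences changed sign. With a marker covariate, which itself followed genotype and time, they were -0.57 (Nr4a1) and -0.47 (Nr4a2) at T6 and -0.12 and -0.071 at T0. With median centring Nr4a1 was -0.031 at T6. With the mean of all probe sets of a gene, which adds the dim ones, Nr4a2 was -0.049 at T0 and its difference of changes was 0.14. The cause of these sign changes, and of those that follow, was not tested. With 1 array left out, KO minus WT at T6 ran between -0.13 and 0.24 for Nr4a1, negative without KO T6 replicate 1 (-0.13), KO T6 replicate 3 (-0.0055) or WT T6 replicate 2 (-0.08). For Nr4a2 it ran between -0.035 and 0.34, negative without KO T6 replicate 1. Nr4a3 kept its sign throughout, at -0.42 to -0.13 at T6, 0.21 to 0.48 at T0 and -0.78 to -0.33 for the difference of changes (adjusted p 0.861 to 1.0).

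Counts of called genes moved more. For KO against WT they were 13 at T6 (0 to 61 over the alternatives, the highest with the mean of probe sets above percentile 40 on all arrays, an alternative added after seeing the data) and 5 at T0 (1 to 10). For activation they were 2746 in KO (793 with the marker covariate) and 3302 in WT (594), and for the difference of changes 0 to 1.

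With a replicate block no Nr4a call changed, although the standard error of Nr4a1 fell to 0.14, and the count at T6 was 24. The numbers were not shown to pair arrays: same-numbered T6 and T0 arrays correlated at 0.18, 0.46 and 0.38 in KO, where each array correlated best with its own number, and at 0.23, -0.06 and -0.11 in WT. A separate fit of the groups gives no difference of changes. The probe sets near percentile 40 have little signal over background, so their changes are bounded poorly.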

Other observations

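The unequal change of the brightest probe sets of the 3 genes was noticed first and then tested on the same arrays, so it is a description that needs other samples. Exact permutation of the T6 and T0 labels within each genotype (two-sided, 400 permutations, smallest possible p 0.005) gave p = 0.005 for the shift of Nr4a3 over Nr4a1, whose mean was 1.55, and for that of Nr4a3 over Nr4a2, 1.39. Both had an adjusted p of 0.0075 over the 3 ratios. Nr4a2 over Nr4a1, at 0.16, gave an exact p of 0.145. These shifts hold for 1 probe set per gene: with all probe sets of a gene averaged Nr4a3 changed least, by 1.76 in KO and 2.09 in WT, against 2.37 and 2.23 for Nr4a2 and 2.74 and 3.06 for Nr4a1.

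Nr4a1 and Nr4a2 also moved together among arrays of the same group. Nr4a1 was highest on replicate 1, then 3, then 2 in all 4 groups, and 104 of 13156 genes (0.791%) had the same order of replicate numbers in every group. Nr4a2 was highest on replicate 1 in all 4 groups, as 310 genes (2.36%) were. Nr4a3 and all 19 immediate early genes lacked a fixed highest number. Over all tested genes 693 (5.27%) had one, whichever the number, so its absence from a list of 19 sets that list apart little. The B cell markers were also highest on replicate 1 in each group, at a mean log2 level of 9.76 in KO T6, 10.43 in KO T0, 8.46 in WT T6 and 9.18 in WT T0. KO T6 replicate 2, the lowest KO T6 array for all 3 Nr4a genes, had the lowest T cell identity level of all arrays (12.28) and an erythroid marker level of 12.84. The part of cell mixture in this array order was not tested. These orders were looked for after the values were seen.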
